A study of Mus musculus with 6 samples.

Results

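To examine the matrix of the liver after ectopic activation of human *SRY*, the genes of collagens, matrix proteins and matrix proteases were followed in bead array data from 3 hSRY-ON and 3 hSRY-OFF male mouse livers at postnatal day 6. Members were chosen by symbol alone: collagen chains, laminins, fibulins, fibrillins, lysyl oxidases, matrix metalloproteinases (MMPs), ADAMTS proteases and their TIMP inhibitors, with *Fn1*, *Sparc*, *Dcn*, *Lum* and *Bgn*. This gave 97 of the 18138 symbols in the table, carried by 142 probes. The symbols *Fn1*, *Lama5* and *Loxl2* did not occur in the table.

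All pups were of the FVB strain (FVB/N in the study's methods). hSRY-ON pups carried a single-copy *Signalox-hSRY* transgene at the *H11* locus. The methods use hSRY-OFF for mice with the same transgene not recombined, in which its CAG promoter drives *DsRed2* and not the tagged human *SRY* with *EGFP*. The study also describes control littermates without this transgene, with or without *Ddx4-Cre*, which would lack *DsRed2*. The labels of the arrays say only hSRY-OFF, so which of these genotypes the 3 control pups had is not settled here. In hSRY-ON pups Cre protein from the oocyte of a *Ddx4-Cre* mother had removed *DsRed2* at the single-cell stage, and the pups chosen for the arrays did not carry *Ddx4-Cre* themselves. The CAG promoter is active in most cell types. The model is 1 transgenic line, and the study describes the arrays as biological triplicates. The labels do not say whether pups shared a litter, and human *SRY* itself was not analysed here.

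Most matrix of the liver is made by stellate cells, which lie between hepatocytes and sinusoids, by fibroblasts around the portal tracts and by endothelium. Fibrillar collagens give strength, type IV collagen and laminins form basement membranes, and lysyl oxidases cross-link collagen and elastin. MMPs and ADAMTS enzymes cut matrix proteins, and TIMPs block them. In liver injury stellate cells lose their retinoid stores, gain smooth muscle actin and lay down matrix. RNA was measured here, not protein, and in whole liver a smaller number of cells of a type cannot be told apart from less RNA per cell.

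The arrays detected 40.2% to 41.9% of all probes and 45 to 49 of the 142 member probes (detection p under 0.01). The scores of the first principal component over the tested member probes were -2.47, -3.03 and -3.20 on the hSRY-OFF arrays and 3.95, 2.70 and 2.05 on the hSRY-ON arrays. Over all tested probes hSRY-ON replicate 3 stood nearest to the controls. Results that depend on 1 array are given with and without it.

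Of the 142 member probes, 48 passed the filter of detection on at least 3 of the 6 arrays, and these belonged to 42 genes. The remaining 94 probes were not tested: 88 were detected on no array and 6 on 1 or 2 arrays. Among the 55 genes left without a tested probe were *Col1a2*, *Col5a2*, *Col15a1* and the secreted proteases *Mmp3*, *Mmp7*, *Mmp8*, *Mmp10*, *Mmp12* and *Mmp13*. A probe below background gives no level for its gene.

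The *Timp* genes are shown first by sequence because some of them rose and another did not. The sequence before the start of each tested *Timp* gene follows. These are the 250 bases upstream of the RefSeq start (build GRCm38.p6), for *Timp1* at chrX:20869916-20870165 (plus strand), for *Timp2* at chr11:118355412-118355661 (minus strand) and for *Timp3* at chr10:86300162-86300411 (plus strand). Capitals mark matches on either strand to the 4 motifs searched: AACAAT, a core bound by SRY and SOX proteins, TGANTCA for AP-1, ACGTG for hypoxia-inducible factors, and TATAAA.
Timp1: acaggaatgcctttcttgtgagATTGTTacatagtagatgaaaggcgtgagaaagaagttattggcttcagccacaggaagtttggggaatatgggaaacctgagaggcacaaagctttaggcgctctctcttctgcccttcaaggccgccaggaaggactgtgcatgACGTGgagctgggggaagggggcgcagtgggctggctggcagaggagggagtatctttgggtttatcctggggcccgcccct
Timp2: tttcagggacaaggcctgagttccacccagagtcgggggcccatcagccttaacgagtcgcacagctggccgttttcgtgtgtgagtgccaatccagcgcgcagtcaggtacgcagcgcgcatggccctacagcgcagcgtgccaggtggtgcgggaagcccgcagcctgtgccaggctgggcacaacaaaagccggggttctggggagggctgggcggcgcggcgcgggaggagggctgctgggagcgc
Timp3: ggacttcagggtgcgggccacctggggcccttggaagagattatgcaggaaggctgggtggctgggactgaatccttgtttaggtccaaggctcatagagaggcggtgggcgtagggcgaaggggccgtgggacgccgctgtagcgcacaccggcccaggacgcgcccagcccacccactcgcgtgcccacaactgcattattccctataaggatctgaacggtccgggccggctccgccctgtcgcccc
The *Timp1* stretch held AACAAT (read as its reverse complement) and ACGTG, which do not overlap, and the stretches of *Timp2* and *Timp3* held none of the 4. They also differed in base composition, with 54.4% G and C in *Timp1*, 68.0% in *Timp2* and 65.6% in *Timp3*.

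Another pair of members shares its start. The RefSeq starts of *Col4a1* (minus strand) and *Col4a2* (plus strand) face each other and overlap by 22 bases at chr8:11312805-11312826, shown on the plus strand because both genes moved together below.
Col4a1 and Col4a2 shared start: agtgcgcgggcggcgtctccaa

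Of the 48 tested member probes, 11 were called higher and 10 lower in hSRY-ON livers (limma, adjusted p under 0.05). This is 22.9% and 20.8% of the members, against 15.8% of all tested probes called higher, 17.3% called lower and 33.1% called in either direction. The called probes belonged to 10 genes that rose and 9 that fell, and 23 genes had a tested probe but none past the threshold. The groups did not overlap at 56.2% of the tested member probes (14 higher and 13 lower), against 50% of all tested probes (25.4% higher and 24.6% lower). Differences ranged from -1.60 to 2.16 on the log2 scale with a median of 0.03, and the median over all tested probes was 0.02. The count of falls rested partly on single arrays: 4 member probes were called lower without hSRY-OFF replicate 1, 5 without hSRY-OFF replicate 2 and 6 without hSRY-ON replicate 1. Over all tested probes the calls lower went from 1854 to 965, 1009 and 1444 in the same runs. The count of rises was 9 to 12 with any array left out. When raw intensities were scaled by a trimmed mean of log ratios (trimmed-mean scaling below), 10 rose and 6 fell.

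**Figure D1:**
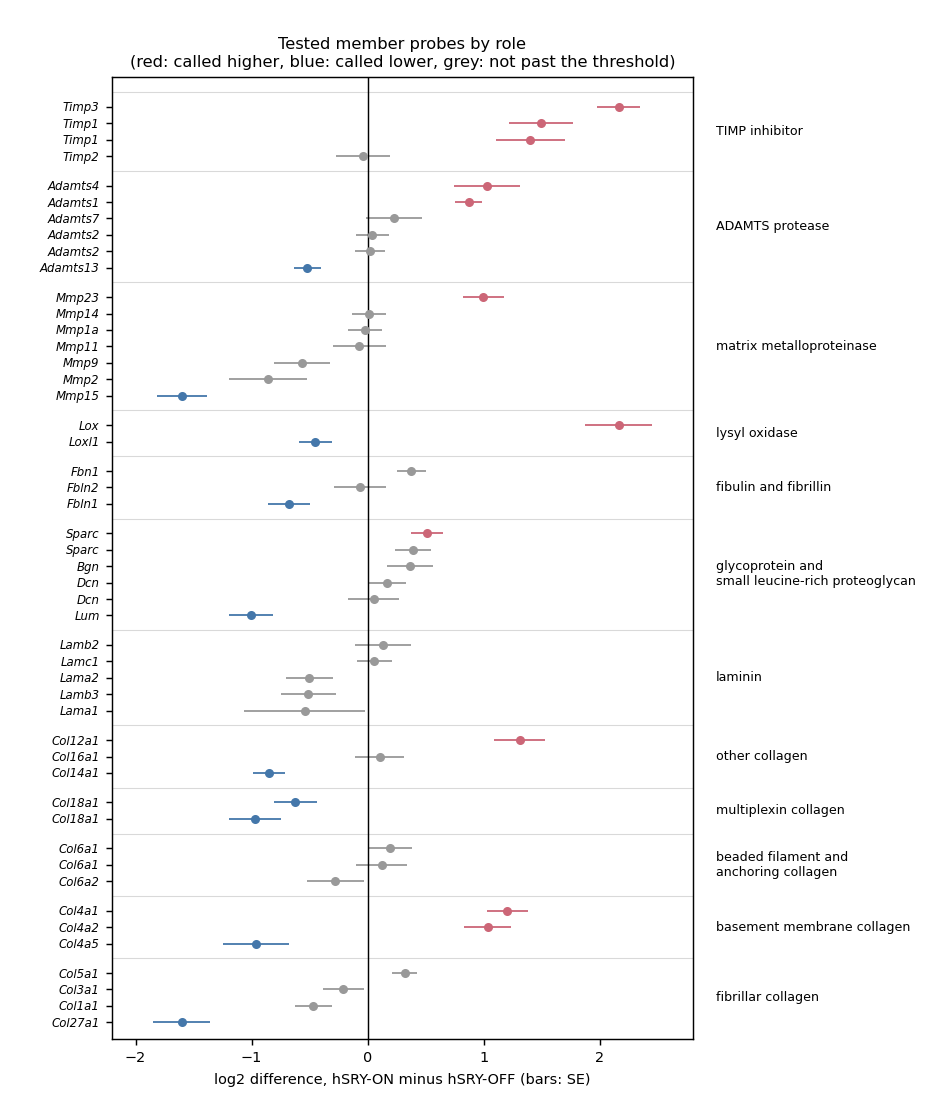
Log2 difference (hSRY-ON minus hSRY-OFF, x axis) with its SE for the 48 tested member probes, ordered by role on the y axis. *Lox* and *Timp3* stand farthest to the right at 2.16, *Col27a1* and *Mmp15* farthest to the left at -1.60, and all 5 laminin probes are grey, which marks probes not past the threshold.

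Among the inhibitors, *Timp3* and *Timp1* rose and *Timp2* did not pass the test. *Timp3* encodes the inhibitor that stays bound to the matrix. Its log2 intensities were 7.43, 7.49 and 7.35 on the hSRY-OFF arrays and 9.51, 9.97 and 9.28 on the hSRY-ON arrays. The lowest hSRY-ON value lay far above the highest control, and the difference of 2.16 ± 0.19 (SE, 4.48-fold, adjusted p 0.000351) was past the threshold under every alternative run for it.

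*Timp1*, a soluble inhibitor induced in many forms of liver injury, was read by 2 probes that followed each other closely. With probe ILMN_2769918 the hSRY-OFF values were 6.85, 6.25 and 6.56 and the hSRY-ON values 8.63, 7.67 and 7.84, so that hSRY-ON replicate 1 was highest. The difference was 1.49 ± 0.27 (SE, adjusted p 0.00645), and 1.40 ± 0.30 (SE, adjusted p 0.0114) with the other probe. *Timp2*, which takes part in the activation of MMP2 as well as in MMP inhibition, had values of 9.78, 10.01 and 9.25 in hSRY-OFF and 9.72, 9.89 and 9.32 in hSRY-ON livers. The groups overlapped and the difference was -0.04 ± 0.23 (SE, adjusted p 0.909). *Timp4* was detected on 0 arrays.

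**Figure D2:**
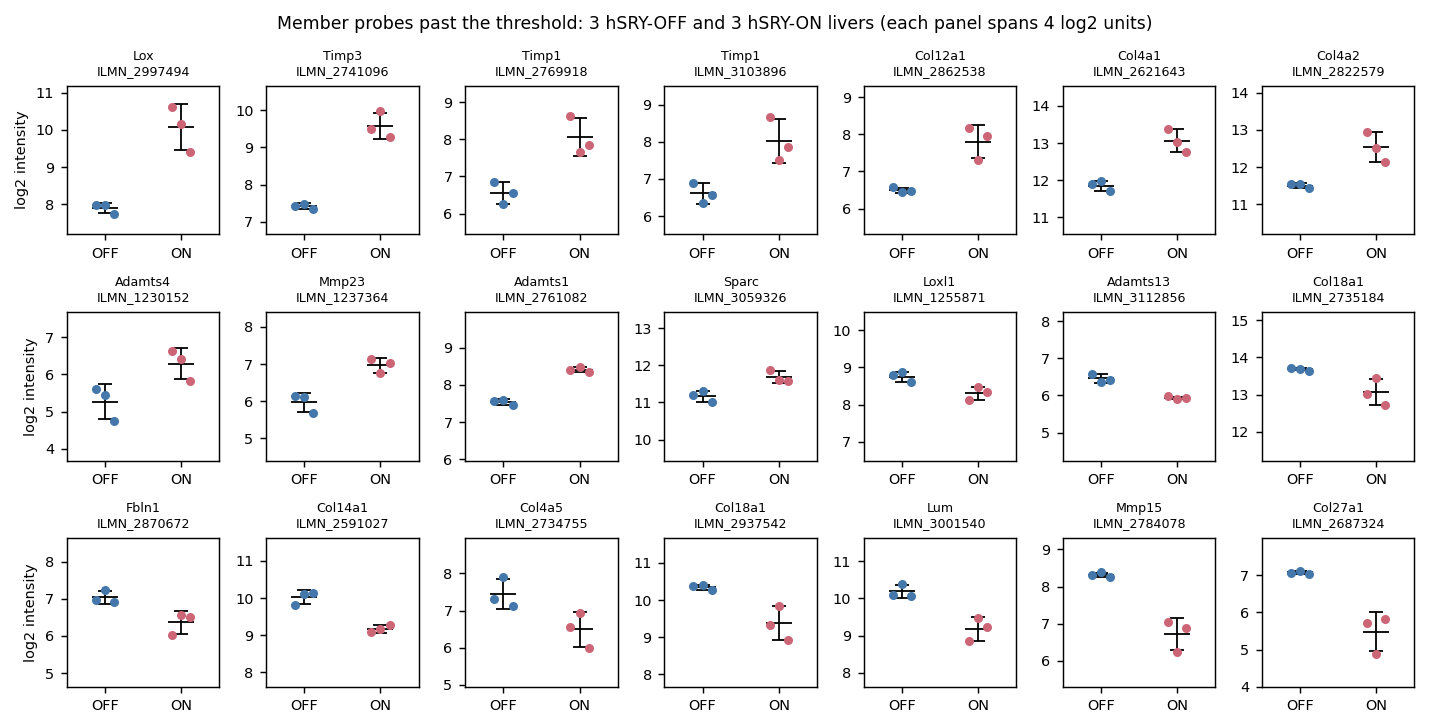
Log2 intensity (y axis, each panel spanning the same height) of the 21 member probes past the threshold on the 3 hSRY-OFF (blue) and 3 hSRY-ON (red) arrays, with the mean and SD in black. In every panel the groups are apart, and the hSRY-ON points of *Lox*, *Mmp15* and *Col27a1* are spread more widely than their controls. The median SD over all tested probes was also larger in hSRY-ON (0.209) than in hSRY-OFF livers (0.14).

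The lysyl oxidases moved in opposite directions. *Lox*, the founding member of the family, had values of 7.98, 7.98 and 7.75 on the hSRY-OFF arrays and 10.63, 10.17 and 9.41 on the hSRY-ON arrays. The controls lay close together, while the hSRY-ON livers spread over more than a log2 unit above them (SD 0.13 and 0.62, n = 3 each). The difference of 2.16 ± 0.29 (SE, 4.48-fold, adjusted p 0.00191) was past the threshold under every alternative run for it.

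*Loxl1*, which acts mainly on elastic fibres, was slightly lower, with 8.79, 8.86 and 8.60 in hSRY-OFF and 8.12, 8.46 and 8.33 in hSRY-ON livers (difference -0.45 ± 0.14, SE, adjusted p 0.0433). Leaving out any array but hSRY-ON replicate 2 ended this call (adjusted p 0.0549 to 0.142), as did median scaling (0.0823), no filter (0.0567) and trimmed-mean scaling (0.0724). *Loxl3* and *Loxl4* were not detected.

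In the basement membrane group *Col4a1* and *Col4a2*, whose products assemble into the common form of type IV collagen, rose together. The log2 intensities of *Col4a1* were 11.89, 11.97 and 11.71 in hSRY-OFF and 13.38, 13.03 and 12.76 in hSRY-ON livers. Those of *Col4a2* were 11.53, 11.55 and 11.43 in hSRY-OFF and 12.95, 12.52 and 12.15 in hSRY-ON livers. In both genes hSRY-ON replicate 1 was highest and replicate 3 lowest, and no hSRY-ON value reached down to the controls. The differences were 1.20 ± 0.18 (SE, adjusted p 0.0029) and 1.03 ± 0.20 (SE, adjusted p 0.00846), and both were past the threshold under every alternative run for them.

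*Col4a5*, a chain of the minor form of type IV collagen, was lower. Its values were 7.32, 7.91 and 7.13 in hSRY-OFF and 6.55, 6.94 and 5.99 in hSRY-ON livers, 2 groups that lay close without overlap. The difference was -0.96 ± 0.29 (SE, adjusted p 0.0385), and the call was lost without hSRY-OFF replicates 1 (0.0878) or 2 (0.121) or hSRY-ON replicates 1 (0.0856) or 3 (0.067). It was also lost with no filter (0.0812) and with trimmed-mean scaling (0.0588). *Col4a3*, *Col4a4* and *Col4a6* were not detected.

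The laminins, the other main component of basement membranes, gave 0 calls among 5 tested probes, against 33.1% called of all tested probes (limma). At an unadjusted p under 0.05, 1 of the 5 passed, that of *Lama2*. The difference of *Lamc1*, the gamma chain of most laminins, was 0.06 ± 0.15 (SE, adjusted p 0.799) and that of *Lamb2* 0.13 ± 0.24 (SE, adjusted p 0.713). Both overlapped between the groups, and both turned to a negative difference without hSRY-ON replicate 1 (-0.04 and -0.14). *Lama2* and *Lamb3* were at -0.50 and -0.51, and the groups of *Lama2* did not overlap (limma, adjusted p 0.0933). *Lama1* was at -0.54 and varied from 5.54 to 7.44 among the hSRY-ON arrays.

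*Col18a1*, the multiplexin collagen of vessel basement membranes from which endostatin is cut, was lower with both tested probes. With ILMN_2937542 its values were 10.37, 10.40 and 10.27 in hSRY-OFF and 9.33, 9.85 and 8.93 in hSRY-ON livers (difference -0.97 ± 0.22, SE, adjusted p 0.0151). With ILMN_2735184 the difference was -0.62 ± 0.18 (SE, adjusted p 0.0377). The first call was lost without hSRY-OFF replicates 1 (0.0589) or 2 (0.0571). The second was lost without any array except hSRY-ON replicate 2 (0.0563 to 0.116) and with no filter (0.066).

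Of the 4 tested fibrillar collagen probes, 1 was called, against 33.1% of all tested probes. *Col27a1*, a fibrillar collagen known from cartilage, had values of 7.07, 7.13 and 7.03 in hSRY-OFF and 5.71, 4.87 and 5.83 in hSRY-ON livers. It fell by 1.60 ± 0.25 on the log2 scale (SE, adjusted p 0.00343). hSRY-ON replicate 2 did not detect it, and with that array at its detection floor the difference was -1.31.

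The major interstitial collagens with a tested probe did not pass the test. *Col1a2* and another probe of *Col3a1* (ILMN_1258629) were detected on 0 arrays and not tested. *Col1a1* had values of 9.12, 9.02 and 8.69 in hSRY-OFF and 8.67, 8.41 and 8.35 in hSRY-ON livers, a narrow separation with the hSRY-ON livers below (difference -0.47 ± 0.16, SE, adjusted p 0.0585). It was past the threshold without hSRY-OFF replicate 3 (0.0399), with no or other background corrections (0.0452 to 0.0492), with a trended robust variance (0.0484), array weights (0.0451) or the replicate block (0.0475), and its highest adjusted p over the alternatives was 0.191. *Col3a1* was near background, with 2 of the control livers and 1 hSRY-ON liver above detection (difference -0.21 ± 0.17, SE, adjusted p 0.388). *Col5a1*, which starts fibril assembly, was at 10.68, 10.60 and 10.73 in hSRY-OFF and at 10.97, 10.97 and 11.01 in hSRY-ON livers (difference 0.32 ± 0.11, SE, adjusted p 0.0603).

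The fibril-associated collagens went both ways. *Col12a1*, which binds the surface of fibrils and is made under mechanical load, rose from 6.57, 6.44 and 6.47 to 8.17, 7.30 and 7.94 (difference 1.31 ± 0.22, SE, adjusted p 0.00471). *Col14a1*, its close relative, went from 9.82, 10.11 and 10.15 to 9.08, 9.16 and 9.29 (difference -0.85 ± 0.14, SE, adjusted p 0.004). Both calls held under every alternative run for them. *Col16a1* and the 3 probes of *Col6a1* and *Col6a2*, chains of the beaded filaments around cells, had differences between -0.28 and 0.20, none past the threshold. The sign of *Col6a1* probe ILMN_2768087 (0.12) turned to -0.13 without hSRY-OFF replicate 3.

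The small leucine-rich proteoglycans bind collagen fibrils and set their width. *Lum* had values of 10.10, 10.40 and 10.07 in hSRY-OFF and 8.85, 9.47 and 9.23 in hSRY-ON livers, with all hSRY-ON livers below the controls. It fell by 1.01 ± 0.19 on the log2 scale (SE, 2.01-fold, adjusted p 0.00684), and the call held under every alternative run for it. Its relatives *Dcn* (differences 0.05 and 0.16, adjusted p 0.874 and 0.475) and *Bgn* (0.36 ± 0.20, SE, adjusted p 0.2) did not pass the test. *Bgn* was at 12.59 and 12.55 on hSRY-ON replicates 1 and 2 but at 11.89, within the controls, on replicate 3, and without that array its adjusted p was 0.00995.

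*Sparc*, which binds collagen during its secretion, was higher in all 3 hSRY-ON livers with both probes. Only ILMN_3059326 was past the threshold (difference 0.51 ± 0.14, SE, adjusted p 0.0277), and ILMN_3136561 differed by 0.39 ± 0.15 (SE, adjusted p 0.0917). The call was lost without any hSRY-OFF array or hSRY-ON replicate 1 (0.0540 to 0.0905), with median scaling (0.165) and with trimmed-mean scaling (0.0818). Of the elastic fibre proteins, *Fbln1* was lower by -0.68 ± 0.18 (SE, adjusted p 0.0258), a call lost without any hSRY-OFF array or hSRY-ON replicate 1 (0.0517 to 0.0946) and with trimmed-mean scaling (0.0513). *Fbn1*, the main microfibril protein, differed by 0.38 ± 0.13 (SE, adjusted p 0.0559, with 0.0371 to 0.176 over the alternatives), and *Fbln2* by -0.07.

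Among the 7 tested MMP probes, 1 rose and 1 fell, against 15.8% and 17.3% of all tested probes. *Mmp15*, a membrane-anchored protease, was at 8.31, 8.38 and 8.25 in hSRY-OFF and at 7.04, 6.23 and 6.88 in hSRY-ON livers. It fell by 1.60 ± 0.21 on the log2 scale (SE, 3.03-fold, adjusted p 0.0019). *Mmp23* went from 6.13, 6.11 and 5.67 to 7.14, 6.75 and 7.02 (difference 0.998 ± 0.17, SE, adjusted p 0.00542), with 1 hSRY-OFF array below detection. Both calls held under the alternatives in which the probes were tested.

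The gelatinases and the main membrane-type protease did not pass the test. *Mmp2*, a product of stellate cells and fibroblasts, was at 9.58, 10.03 and 9.60 in hSRY-OFF and at 8.91, 9.56 and 8.15 in hSRY-ON livers (difference -0.86 ± 0.34, SE, adjusted p 0.0863, and 0.0169 without hSRY-ON replicate 2). *Mmp9*, a product of neutrophils and macrophages, was at 7.91 to 7.96 in the controls and at 6.92, 7.25 and 7.93 in hSRY-ON livers. Its difference of -0.57 ± 0.24 (SE, adjusted p 0.11) was past the threshold without hSRY-ON replicate 3 (0.00479). *Mmp14*, which activates MMP2 at the cell surface, differed by 0.01 ± 0.15 (SE, adjusted p 0.96), with a sign that turned under median scaling (-0.10) and trimmed-mean scaling (-0.06).

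Of the ADAMTS proteases, *Adamts1* and *Adamts4*, which cut large proteoglycans such as versican, rose. *Adamts1* was tightly grouped, at 7.58, 7.59 and 7.45 in hSRY-OFF and at 8.39, 8.48 and 8.35 in hSRY-ON livers (difference 0.87 ± 0.11, SE, adjusted p 0.00175). *Adamts4* was undetected in hSRY-OFF livers but detected in the 3 hSRY-ON livers, at least 1.46-fold higher (adjusted p 0.0302, lost without hSRY-OFF replicates 2, 0.0654, or 3, 0.075, with no background correction, 0.0513, with trimmed-mean scaling, 0.0753, and with no filter, 0.0654). It passed the filter only through the hSRY-ON arrays, where it is high, so its test is not independent of that selection, and without it 10 member probes were called higher. *Adamts13*, which in the liver is made by stellate cells and cuts von Willebrand factor, was lower, at 6.58, 6.36 and 6.43 against 5.97, 5.92 and 5.92 (difference -0.52 ± 0.12, SE, adjusted p 0.0136). Leaving out hSRY-OFF replicate 1 (0.0652), no background correction (0.0728) or trimmed-mean scaling (0.119) ended this call. *Adamts2*, which trims procollagen, differed by 0.02 and 0.04 with its 2 tested probes.

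Sequence before the starts was available for 69 of the 97 member genes in the RefSeq table, each as the 250 bases before and 50 after the start. AACAAT was found in 7.25% of these members against 12.2% of all 27025 genes in the table, TGANTCA in 13% against 8.97%, ACGTG in 18.8% against 21.8% and TATAAA in 23.2% against 15.7%. Of the 7 genes that rose and had a sequence, *Timp1* held AACAAT and ACGTG and *Adamts1* held TATAAA. Of the 6 that fell, *Fbln1* held AACAAT and ACGTG. The windows of *Col4a1*, *Col4a2*, *Col4a5*, *Col18a1*, *Col27a1*, *Mmp15*, *Mmp23*, *Sparc*, *Adamts13* and *Timp3* held none of these letters, and such a match or its absence is a description of the window only.

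Genes that work with the members were described as 5 further lists (105 tested probes, 13 called higher and 28 lower, against 15.8% and 17.3% of all tested probes). These counts, and those of each list and marker list below, include the probes given an at-least fold. Such probes passed the filter only through the group where they are high, so their calls are not independent of that selection. Of 22 tested probes for making and processing collagen, 3 were higher and 7 lower, with a median of -0.13. *Plod2*, the hydroxylase of telopeptide lysines that sets the type of cross-link, was at 5.32, 5.49 and 5.11, below detection, in hSRY-OFF and at 10.09, 9.35 and 7.76 in hSRY-ON livers. It was at least 10.0-fold higher. Like every probe with an at-least fold below, it passed the filter only through the group where it is high, and no p-value is given for these. *P4ha2*, a prolyl hydroxylase subunit, went from 5.76, 6.08 and 6.30 to 9.91, 9.03 and 9.29 (difference 3.36 ± 0.25, SE, adjusted p 0.000209, and 3.35 with the undetected hSRY-OFF array at its floor). All hSRY-ON livers lay far above the controls at both genes, whereas *P4ha1* differed by -0.17 and *Plod1* by 0.32, neither past the threshold.

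*Bmp1*, the protease that removes the C-terminal propeptide of fibrillar procollagens and also activates lysyl oxidase, was lower with all 4 tested probes, by -1.55 to -0.98. *Pcolce*, which enhances that cleavage, was lower by -0.63 (adjusted p 0.0119, lost without hSRY-OFF replicates 1, 0.0533, or 2, 0.051). *Colgalt2*, a collagen galactosyltransferase, was lower by -1.09, with 1 of 3 hSRY-ON arrays above detection, a call lost without hSRY-OFF replicates 2 (0.0566) or 3 (0.0652).

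Of 33 tested probes of other matrix glycoproteins and proteoglycans, 4 were higher and 10 lower (median -0.35). *Ccn2* (*Ctgf* in the table), a matricellular protein linked to fibrosis, was at 8.44, 8.69 and 7.70 in hSRY-OFF and at 12.99, 11.89 and 11.17 in hSRY-ON livers, a difference of 3.74 ± 0.46 (SE, adjusted p 0.00135). *Emilin2*, which encodes an elastin microfibril protein, was higher by 1.22. Among the falls, the microfibril-associated *Mfap4* was at least 4.74-fold lower and detected on 0 hSRY-ON arrays, *Mfap2* differed by -1.43 and -1.17 with 2 probes and was at least 1.54-fold lower with a probe undetected in hSRY-ON, and *Eln*, the gene of elastin, differed by -0.85.

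Of 18 tested matrix receptor probes, 2 were higher and 4 lower (median -0.23). *Sdc1*, a heparan sulfate proteoglycan of hepatocytes, was lower with both probes (-1.56 and -1.23). *Itga3* was higher by 0.63 (lost without hSRY-OFF replicate 1, 0.0565, and with trimmed-mean scaling, 0.0718), and 1 of the 2 probes of *Itgb1* by 0.52 (adjusted p 0.0372, and 0.129 at the highest, without hSRY-OFF replicate 2).

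Of 14 tested TGF-beta signalling probes, 2 were higher and 2 lower (median 0.08). *Tgfb3*, a ligand, went from 6.34, 5.83 and 6.01 to 8.60, 8.69 and 7.47 (difference 2.19 ± 0.33, SE, adjusted p 0.00303), while *Tgfb1* differed by 0.08 (adjusted p 0.71). *Inhba*, which encodes a subunit of activin A, was lower by -1.41, a call lost without hSRY-OFF replicates 1 (0.0552) or 2 (0.051). The intracellular genes *Tgif1* (0.49) and *Smad2* (-0.60) lost their calls without 5 and 3 of the single arrays (adjusted p 0.0519 to 0.113 and 0.0521 to 0.0924). The *Tgif1* call was also lost with no background correction (0.0533), median scaling (0.122), trimmed-mean scaling (0.127) and no filter (0.0518).

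Of 18 tested probes for other matrix proteases and inhibitors, 2 were higher and 5 lower (median 0.10). *Plg*, the hepatocyte gene of plasminogen, was lower with its 3 tested probes (-0.82, -0.81 and -0.66), and *Htra1* was at least 1.42-fold lower with 1 probe. The *Plg* call at -0.81 was lost without hSRY-OFF replicate 2 (0.0537). *Adamtsl5* was at least 1.35-fold higher, and 1 of 2 *Bsg* probes was higher by 0.89.

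**Figure D3:**
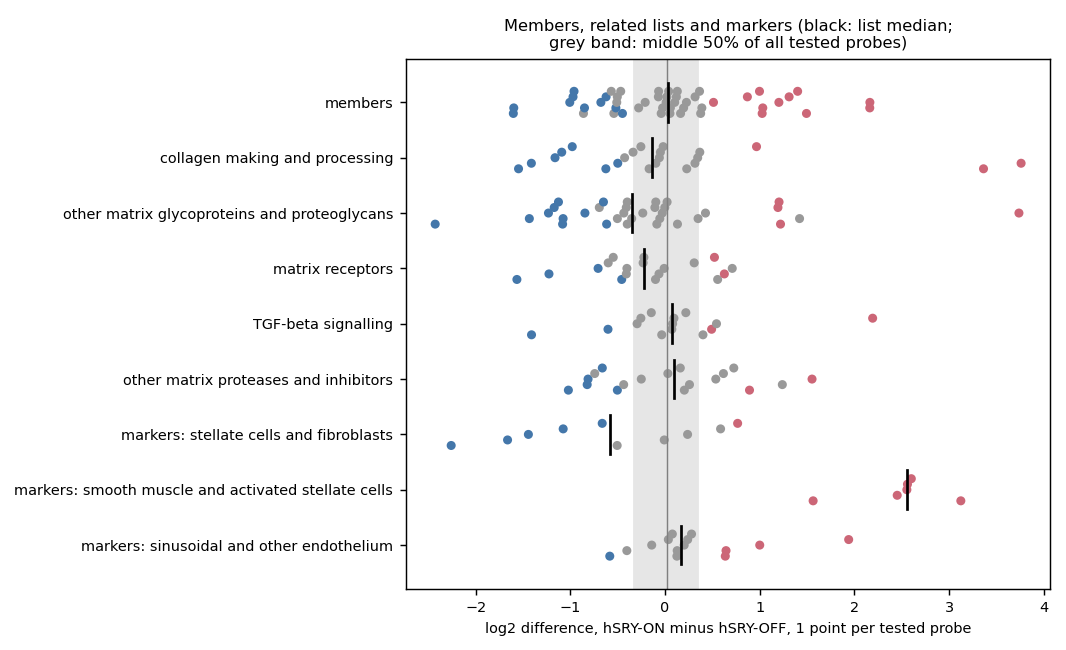
Log2 difference (hSRY-ON minus hSRY-OFF, x axis) of every tested probe of the members, the 5 related lists and 3 marker lists (rows), with the list median as a black bar and the middle 50% of all tested probes as a grey band. Red and blue points were called higher and lower, and the 6 smooth muscle and activated stellate cell probes all lie to the right of 1.5.

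Markers of liver cell types were read as further lists, and their part in the differences above was not tested. Of all tested probes 15.8% were called higher, 17.3% lower and 33.1% in either direction. Among marker lists with at least 6 tested probes, the called share was 100% for smooth muscle and 60% for stellate cells. It was 44.4% for hepatocytes, 41.7% for macrophages, 35.7% for endothelium, 16.7% for erythroid cells and 7.69% for neutrophils. Summed intensities below cover all probes of a list, tested or not. Of 10 tested probes for stellate cells and fibroblasts, 1 was higher and 5 lower (median -0.58), and the summed intensity of all 13 probes was 15920 to 17650 in hSRY-OFF and 10280 to 11040 in hSRY-ON livers. *Reln*, the brightest, was lower by -0.66, and the retinoid enzyme gene *Lrat* was detected on 0 hSRY-ON arrays (at least 2.23-fold lower). The stellate marker that rose was *Des*, by 0.77 (limma, adjusted p 0.0383). Of 17 alternatives, *Des* stayed past the threshold in 9 and fell short in 8, reaching 0.123 with hSRY-OFF replicate 2 left out. *Gfap*, *Hand2* and *Hgf* were detected on 0 arrays. All 6 tested probes for smooth muscle and activated stellate cells were higher (median 2.56, summed intensity 2158 to 2681 and 12550 to 15010). The brightest *Acta2* probe (ILMN_2693895) was higher by 2.45, *Tagln* was at least 4.92-fold higher, and *Cnn1* was detected on 0 arrays.

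Of 14 tested endothelial probes, 4 were higher and 1 lower (median 0.17). The summed intensities of all 17 endothelial probes overlapped, at 12350 to 15460 and 12210 to 15050. *Clec4g* was lower by -0.58 (lost without any array but hSRY-ON replicate 2, 0.0656 to 0.147) while *Lyve1* (1.94), *Oit3* (1.0) and both probes of *Pecam1* (0.64 each) were higher. The *Clec4g* call was also lost with no filter (0.0811) and with a filter at detection p under 0.05 (0.0509). The call of *Pecam1* probe ILMN_2700982 was lost without any array but hSRY-ON replicate 3 (0.0641 to 0.0928). It was also lost with median scaling (0.0907), trimmed-mean scaling (0.0625) and no filter (0.0503). *Kdr* was detected on 0 arrays. Of 12 macrophage probes, 1 was higher and 4 lower (median -0.32, 13950 to 17340 and 11080 to 13730), with *C1qc* at -0.20 and *Cd5l* detected on 0 arrays. Of 13 neutrophil probes, 1 was higher (median 0.68, 46940 to 54310 and 31910 to 97300), with *S100a8* at -0.07. Of 9 tested hepatocyte probes, 0 were higher and 4 lower (median -0.12, 159800 to 163500 and 144800 to 152200), with the brightest *Ahsg* probe at 0.01. The falls were *Alb* (-1.11), both probes of *Serpina1a* (-1.11 and -0.91) and *Ttr* (-0.46). The calls of *Ttr* and *Serpina1a* probe ILMN_2777493 were lost without any single hSRY-OFF array (0.0508 to 0.0608). That of *Serpina1a* probe ILMN_1225699 was lost without hSRY-OFF replicates 1 (0.0511) or 2 (0.0556). Of all 10 hepatocyte probes, 9 were detected on every array, which fits the liver label, and 1 was detected on only 1 or 2 arrays. Of 6 erythroid probes, 1 was higher (median 0.60, 63700 to 82170 and 80120 to 92420), with *Hba-a1* at the top of the scale on all arrays and *Epb42* detected on 0 arrays. Of 3 mesothelial probes, all from *Upk3b*, 0 were called (median -0.44, 951.8 to 1281 and 772 to 998.2), and *Msln*, *Lrrn4* and *Gpm6a* were detected on 0 arrays. Of the bile duct markers, with 2 tested probes and a summed intensity of 156.9 to 169.7 and 254.1 to 1741, *Cldn4* was at least 7.95-fold higher, *Krt7* was not past the threshold, and *Krt19* and *Sox9* were detected on 0 arrays.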

How the data were processed

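Liver RNA of 3 hSRY-OFF and 3 hSRY-ON mice (labels) was hybridised by the authors to 1-colour Illumina MouseRef-8 v2.0 BeadChips. The deposited table gives, per array, a mean bead intensity that was neither background-subtracted nor normalized and a detection p-value (rank among negative control beads). Scanner settings are not given in the sources used here. The study names TCC, a count package, which was not applied to intensities, and the labels list limma without a role. No column lacked a sample (0 unmatched).

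Here intensities were background-corrected from the detection p-values (nec of limma 3.58.1, offset 16, R 4.3.3), quantile normalized and converted to log2. Probes with detection p under 0.01 on at least 3 of 6 arrays were tested (10734 of 25697) with lmFit and eBayes, hSRY-ON minus hSRY-OFF, two-sided, without covariates, with Benjamini-Hochberg adjustment over all of them (threshold 0.05). The offset shrinks differences of dim probes. Where no array of the dimmer group detected a probe, its signal or the lowest detected signal of the array, whichever was higher, gives an "at least" fold. With 3 arrays per group their number limits the precision.

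Symbols of the table were matched to RefSeq (GRCm38.p6), 14307 of 18138 directly and 2927 through 1 older name. Members, lists and tests were chosen with earlier results of these data known. Named were called members whose groups did not overlap (up to 30 genes), a set of main matrix genes, the largest changes of each related list and the brightest marker of each cell type. Other genes named were chosen after their values were seen. Alternatives were other background corrections (an offset of 50), scalings (median, or a trimmed mean of M values, computed on raw intensities), filters, variance models, a threshold of 0.01, 1 probe per symbol, a replicate block and each array left out.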

Additional observations from a re-analysis of the deposited data

How the results depend on the processing

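Of the 21 member probes past the threshold, 13 kept their direction and their side of it under every alternative run for them. Of the 21, 0 turned sign. These runs of single probes did not include the threshold of 0.01 or 1 probe per symbol. At an adjusted p under 0.01, 693 of all probes were higher and 972 lower, with 4 member probes lower (8 higher) and 16 probes of the related lists lower. With trimmed-mean scaling 6 member probes were called lower, and with array weights 22 probes of the related lists were called higher. Leaving out each array in turn gave 856 to 1822 higher and 965 to 2125 lower probes in all, 9 to 12 higher and 4 to 12 lower members, 10 to 17 higher and 15 to 32 lower probes of the related lists, and a member median between -0.041 and 0.126. The lowest counts over all probes came without hSRY-OFF replicate 1 and the highest without hSRY-ON replicate 3. Of the members not past the threshold, *Dcn* probe ILMN_2596346 changed sign with array weights (-0.082) and *Mmp14* with median scaling (-0.097) and trimmed-mean scaling (-0.060). With each array left out these ranged from -0.060 to 0.24 (*Dcn*) and -0.086 to 0.13 (*Mmp14*), and *Timp2* from -0.26 to 0.13, *Lamc1* from -0.037 to 0.16, *Lamb2* from -0.14 to 0.36 and *Col6a1* probe ILMN_2768087 from -0.13 to 0.29. The cause of these changes was not tested. Of 70 called probes in the related and marker lists, 45 kept their call in every such run, again without the threshold of 0.01. For these lists the single-probe runs were chosen after seeing the data.

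Replicate numbers are shared by the groups in the labels, but same-numbered arrays did not deviate together beyond a correlation of 0.1 (0.02, 0.10 and 0.05 across probes), and hSRY-OFF replicate 1 went best with hSRY-ON replicate 3 (0.13). With the replicate block 11 member probes were called higher and 12 lower. Among the member probes followed singly, *Col1a1* (adjusted p 0.0475) and *Mmp2* (0.0359) then passed the threshold and *Loxl1* (0.0637) did not. Other members not past the threshold in the main run, such as *Lama2*, were not followed singly, so this list is not complete. Signal over background limits the account to 48 of the 142 member probes.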
